A study of Mus musculus with 12 samples.

Results

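The clustered protocadherins are cell-surface adhesion proteins of neurons whose genes lie in 3 neighbouring clusters, alpha, beta and gamma. In the alpha and gamma clusters each long variable first exon encodes an extracellular part, a membrane-spanning stretch and the start of the cytoplasmic tail. It is spliced to a few constant exons that encode a common end of the tail, and each first exon has its own promoter. The beta genes have no constant exons. Neurons use different combinations of these promoters, bound by the insulator protein CTCF, and the proteins let a neuron tell its own processes from those of others.

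Members were the gene names in the authors' gene models that begin with Pcdha, Pcdhb or Pcdhg. There were 24 among 35912 gene names, which were Pcdha1, Pcdhb1 to Pcdhb22 and Pcdhga11, with 45 transcripts and 105 exon records. They lay on the forward strand of chromosome 18 between 37089939 and 38001527 (mm9, NCBIM37), a span of 911589 bases. The paper names Ensembl NCBIM37.62 as its reference gene database. All 87740 transcripts of the file carried the class code for a match to a reference transcript. All 45 member transcripts had Ensembl identifiers, and the exons of 44 were the same in the annotation GENCODE M1. What follows therefore describes annotated models, not transcription seen in these samples.

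The models belong to an RNA-seq study of the nucleus accumbens (NAc), a reward region of the ventral striatum, in C57BL/6 mice of 8 to 10 weeks. Repeated cocaine was 7 daily intraperitoneal injections of 20 mg/kg and its control 7 of saline, and acute cocaine was 6 days of saline and 1 of cocaine with its own control of 7 saline injections. NAc was taken 24 h after the last injection, with 3 pools per group, and the labels give 3 to 5 animals per pool. The file analysed here holds exon positions and identifiers and no column of values for any of the 12 samples. Depth, levels in cocaine and saline pools, their spread, and a check of the tissue against its markers were therefore not analysed here, and no test was run.

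The 3 clusters followed each other in the order alpha, beta, gamma, 77340 bases apart between alpha and beta and 152915 bases apart between beta and gamma. Alpha spanned 257373 bases, with exons over 9.59% of it, and beta spanned 256422 bases. A locus identifier marks transcripts that the processing treats as 1 gene, and a TSS group marks transcripts that start at 1 transcriptional start site (TSS). Alpha carried 1 locus and 10 TSS groups, beta 22 loci and 3 TSS groups, and gamma 1 locus and 10 TSS groups. Names, loci and TSS groups thus divided the clusters differently.

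**Figure D1:**
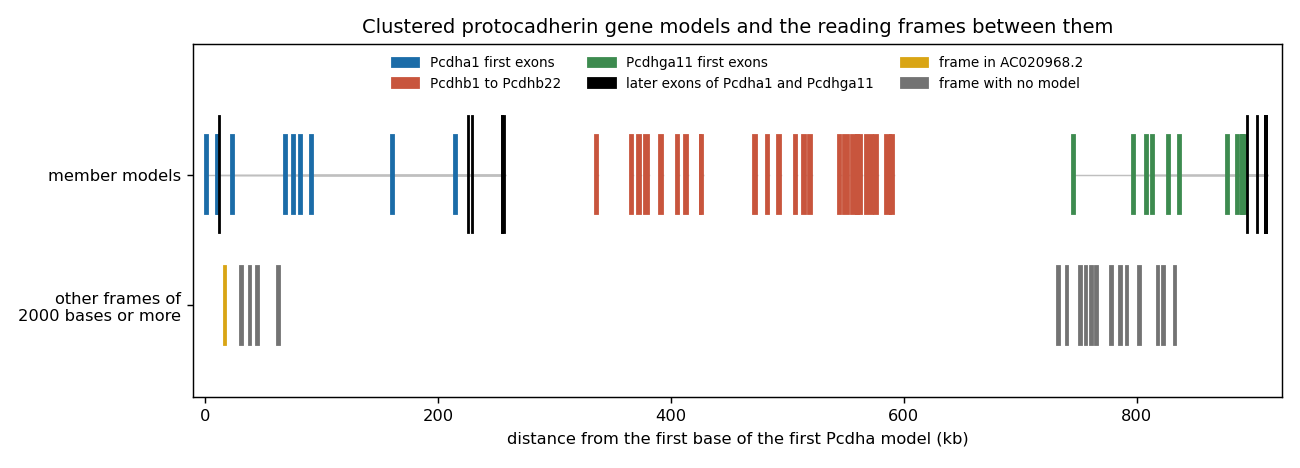
Member models on the upper row and other long reading frames on the lower row, by distance in kb from the first base of the first alpha model. Coloured boxes are first exons (for beta, whole genes), black boxes are later exons, the yellow box is the frame in AC020968.2, and grey boxes are 17 related frames with no model on the same strand, 4 in alpha and 13 in or just before gamma. Boxes are at least 0.9 kb wide so that short exons can be seen.

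Alpha was merged under 1 name. All 10 alpha transcripts carried the gene name Pcdha1 and the locus XLOC_013969, although RefSeq lists 14 alpha gene symbols for the mouse. GENCODE M1, an annotation of the same build, also gave these 10 transcripts 1 gene identifier, under the name Pcdha11, and the exons of all 10 were the same there. The separation of alpha into single genes was therefore absent from the locus level. It was present at the level of start sites, where each of the 10 transcripts had a TSS group of its own (TSS19907 to TSS19916) and a protein identifier of its own.

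The variable first exons of alpha were long and alike in length. The 10 distinct first exons had a median of 2391 bases (lowest 1491, highest 2562), and the longest was that of the transcript nearest the constant exons, model 10. The models are numbered here in 5′ to 3′ order, because they do not name the isoform of each exon. Models 2 and 3 overlapped, so that the first exons formed 9 separate groups, numbered 1 to 9 below. Neighbouring distinct first exons started a median of 9372 bases apart (lowest 897, highest 69906).

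Of the 10 alpha models, 9 joined the same 3 constant positions. The first constant exon had 59 bases (37315809 to 37315867) and the second 89 bases (37318919 to 37319007), and both were the same in these 9 models. The third began at 37344600 in all 9 but had 2 ends. It had 311 bases in 6 models, those whose first exons lie farthest upstream, and 2712 bases in models 8, 9 and 10. The exon thus ended at the stop codon in the 6 short forms, with 0 bases after it, while the 3 long forms held 2401 bases after the stop codon.

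The 5′ ends of alpha were short in the same way. All 9 alpha models with an annotated start codon in GENCODE M1 began at its first base, with 0 bases before it. In the whole file 7.92% of 45823 models with a start codon did so, and the median was 144 bases before it. The TSS group of each of these 9 therefore stood at a start codon and not at a base upstream of it. In gamma the models began 21 to 537 bases before the start codon, and in beta 2 of 22 models with a start codon, those of Pcdhb1 and Pcdhb8, began at it.

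Alpha model 3 (TSS19909) departed from the rest. Its first exon of 1491 bases lay inside the first exon of model 2 and ended at the same base, 37101359. It was joined to an exon of 18 bases across an intron of 679 bases that lacks the usual GT and AG ends, and it reached no constant exon. The other 11 of the 12 alpha introns had these ends. AC020968.2, which GENCODE M1 calls Pcdha3, was a further departure inside the cluster. It lay between models 3 and 4 with exons of 2430 and 9 bases, and had its own locus (XLOC_013970) and TSS group (TSS19917). Its name does not begin as the members' names do, so it was counted as no member.

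The introns that join the alpha first exons to the constant exons were among the long ones of the file. The first introns of the 9 models ranged from 9624 bases in model 10 to 223482 bases in model 1. Of the 12 distinct alpha introns, 7 had 100000 bases or more, as did 0.72% of the 238517 introns of the file, whose median was 1419 bases.

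Beta was kept apart gene by gene. The 22 gene names had 22 loci, and no locus held a member together with any other gene name. No exon was shared between names. Each of the 22 had a transcript of 1 exon, and these 22 transcripts carried no TSS group, as single-exon transcripts of the file do. No beta locus had more than 1 TSS group, and no beta TSS group had more than 1 transcript. Neither a change of promoter use nor of splicing could therefore be defined by TSS group for any of the 22 names. In alpha and gamma too, no TSS group had more than 1 transcript, so no change of splicing within a TSS group could be defined there.

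The distinct first exons of beta were the most uneven in length of the 3 clusters, with a median of 3269 bases (lowest 10, highest 7131). Over the longest first exon of each name the median was 3472 bases. Pcdhb19 had the longest at 7131 bases, of which 4568 lie after the stop codon, followed by Pcdhb16 with 5268 bases. Pcdhb8 had the shortest single-exon transcript, of 2340 bases with no base before the start codon or after the stop codon. The coding part had a median of 794.5 codons over the beta models, with a highest of 829 codons in Pcdhb7. The lowest were 209 codons in Pcdhb6 and 537 and 615 codons in the spliced transcripts of Pcdhb22 and Pcdhb18.

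Pcdhb1, the first gene of the cluster, had a single exon of 2457 bases that began at its start codon and ended with its stop codon. Pcdhb22, the last, had a single exon of 3067 bases with 128 bases before the start codon. Some neighbours were close. The end of Pcdhb19 and the start of Pcdhb20 were 144 bases apart, and the end of Pcdhb21 and the start of Pcdhb22 were 39 bases apart. The other 19 of 21 gaps between beta loci were above 1000 bases, with a median over all 21 of 4268 bases.

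Some beta models departed from the single coding exon. Pcdhb8, Pcdhb18 and Pcdhb22 each had a further transcript of 2 exons, and only these carried a TSS group (TSS19918, TSS19919 and TSS19920). The first exons of these transcripts had 10 bases in Pcdhb8, 1828 bases in Pcdhb18 and 151 bases in Pcdhb22, and their introns 199, 43 and 521 bases. Only the intron of Pcdhb8 had GT and AG ends. Pcdhb20 had the biotype pseudogene and no protein identifier, although its exon held an open reading frame of 799 codons. Pcdhb12 had no annotated start codon in GENCODE M1, and its exon held a frame of 789 codons. Pcdhb6 was truncated at its 5′ end. Its start codon in GENCODE M1 lay 1302 bases into the exon and opened only 209 codons, while a frame of 635 codons began 24 bases into the exon. The full frame of 2319 bases starts at 37493682, before the model's first base at 37494069. GENCODE M1 also held a Pcdhb6 transcript of exactly this frame, from 37493682 to 37496000, which the file lacks.

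Gamma was merged like alpha. All 10 gamma transcripts had the name Pcdhga11 and the locus XLOC_013994, where RefSeq lists 22 gamma symbols, and GENCODE M1 gave them 1 gene identifier under the name Pcdhgc5. Each had its own TSS group (TSS19921 to TSS19930) and its own protein identifier. The 10 distinct first exons had a median of 2601.5 bases (lowest 2565, highest 5426). They started a median of 9807 bases apart (lowest 108, highest 51371) and formed 9 separate groups.

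The constant exons of gamma had the lengths of those of alpha in the first positions. The first had 59 bases (37984675 to 37984733) in 9 of 10 models and the second 89 bases (37992919 to 37993007) in all 10. The third began at 37999557 in all 10 and had 4 ends, giving 1971 bases in 5 models, 1968 bases in 3, 1943 bases in 1 and 262 bases in 1. The longest first intron, of model 1, had 148113 bases. All 11 distinct gamma introns had GT and AG ends.

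Gamma model 10 (TSS19930) was the departure. It started 108 bases after model 9, and its first exon of 5426 bases ran on through the intron and the first constant exon of the other models. Its last exon was the short one of 262 bases. In this model the frame ended inside the long first exon, after 871 codons, against 928 to 944 codons in models 1 to 9. Models 9 and 10 start at different bases, 37979200 and 37979308, and had separate TSS groups. The retained intron of model 10 therefore lies in another TSS group than the spliced form of model 9.

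**Figure D2:**
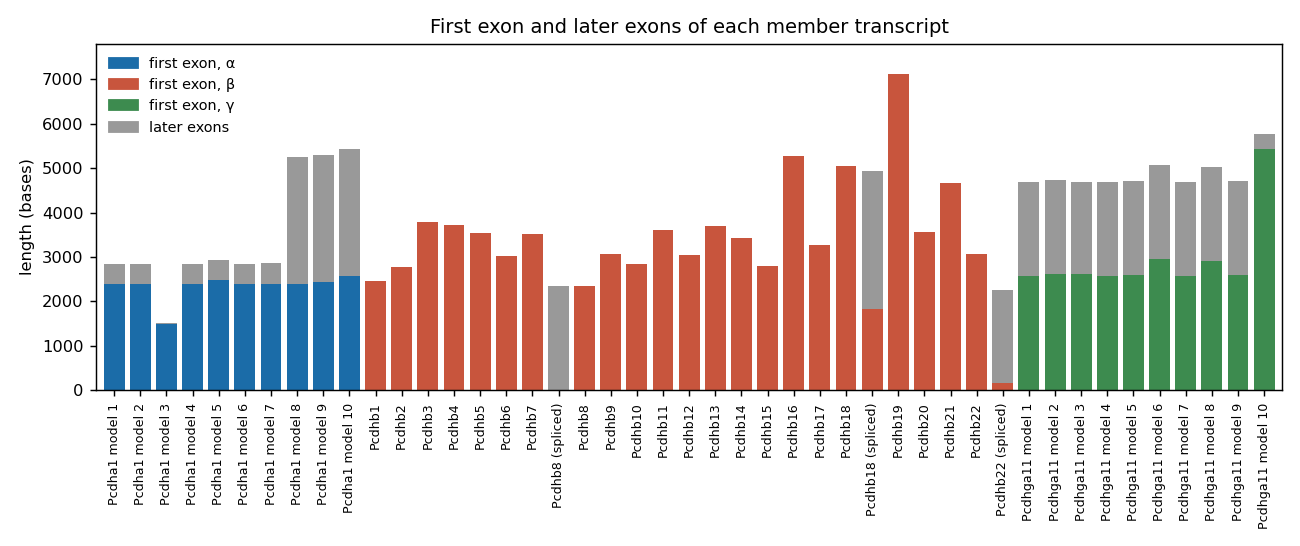
Length in bases of each member transcript, split into its first exon (coloured by cluster) and its later exons (grey). Models 1 to 7 of Pcdha1 have short later exons, models 8 to 10 of Pcdha1 and 1 to 9 of Pcdhga11 long ones, and the beta genes have none except in 3 spliced transcripts. The longest bar is Pcdhb19 with 7131 bases.

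The first exons held most of the protein. In alpha they carried a median of 84.0% of the coding bases (lowest 83.9%, highest 98.8% in model 3) and in gamma a median of 86.7% (lowest 86.6%, highest 100% in model 10). The coding bases of every first exon, 10 in alpha and 10 in gamma, were a whole number of codons. The 9 alpha and 9 gamma first exons that are spliced to the first constant exon therefore meet it in the same frame. The constant part added 152 residues in alpha and 124 in gamma. Over the 117 residues that aligned, 39 were identical, and at the base level 37 of 59 positions of the first constant exon and 47 of 80 aligned positions of the second were identical. Alpha and gamma thus shared the layout of the constant region more than its sequence.

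The merging of the clusters was set beside the rest of the file. No member locus held more than 1 gene name, against 519 of 35406 loci (1.47%) in the file. Alpha and gamma members carried 1 name each in the file, so this count could not show merging there. Counted by name, no exon in any cluster was in more than 1 gene name. Counted over transcripts in place of names, a choice made after seeing the data, 4 exons in alpha, 4 in gamma and 0 in beta were in 2 or more transcripts. Of the 1286 loci with 10 or more transcripts, 14 had a TSS group for each transcript, and Pcdha1 and Pcdhga11 were among them. Of all loci, 230 (0.65%) had 10 or more TSS groups.

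The Ugt1a cluster on chromosome 1, whose enzymes join glucuronic acid to drugs and bilirubin, is built on the same plan of variable first exons and common later exons. Its models kept 9 gene names under 1 locus, the largest number of names at any locus of the file, and 7 of its exons were in 2 or more names. Its 18 transcripts had 11 TSS groups with up to 3 transcripts in a group, and its first exons had a median of 879 bases. The gene symbols were thus preserved in Ugt1a and lost in alpha and gamma, while the locus was merged in each of them.

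The protocadherins outside the clusters were looked up as a list of 13 genes, of which 12 were found. They had 63 transcripts and 30 TSS groups, each gene at a locus of its own. Of their 35 distinct first exons 12 had 2000 bases or more, in 9 of the 12 genes, the longest being that of Pcdh17 with 5091 bases. Over all multi-exon transcripts of the file, counted per transcript, 0.55% of first exons were as long. Pcdh15, which serves the mechanosensory hair bundle, had 34 transcripts in 10 TSS groups. Among 11 genes of chromatin looping and promoter choice, the longest first exon had 593 bases, and Ctcf itself had 6 transcripts in 4 TSS groups.

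**Figure D3:**
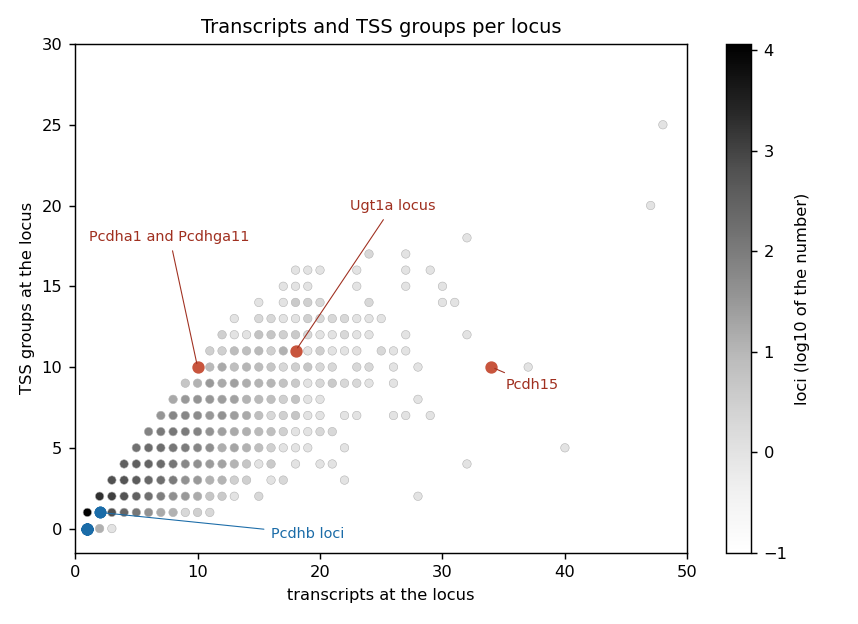
Number of TSS groups against number of transcripts for every locus, grey by the log10 of the number of loci at that point. Pcdha1 and Pcdhga11 coincide at 10 transcripts and 10 TSS groups, on the upper edge where each transcript has its own group, while the Ugt1a locus has 18 and 11, Pcdh15 has 34 and 10, and beta loci lie at 0 or 1 group (blue).

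Composition differed along the clusters. First exons had a median GC content of 53.6% in alpha (9 exons), 47.0% in beta (22 exons) and 53.3% in gamma (9 exons), against 51.1% over the 2092 coding first exons of 1000 bases or more in the file. The ratio of observed to expected CpG, the dinucleotide that is methylated in mammals, had medians of 0.671 in alpha, 0.404 in beta and 0.533 in gamma, against 0.386 in the file. These medians compare unlike stretches, since alpha and gamma first exons end inside the coding part. Beta models run past it, with a median of 883 bases after the stop codon. Pcdhb1 and Pcdhb8, whose single exons are coding only, had 48.2% and 52.6% GC. Their CpG ratios were 0.476 and 0.377, both below the alpha and gamma medians. How much the noncoding bases add to either difference was not tested. Alpha 8 and 9 and gamma 7 to 9 were set apart from the rest after their values were seen. Alpha first exons 8 and 9 had CpG ratios of 0.414 and 0.489, against 0.604 to 0.728 in alpha first exons 1 to 7. In gamma the ranges overlapped, with 0.349 to 0.721 in gamma 7 to 9, against 0.455 to 0.733 in gamma 1 to 6. Upstream, the last first exons of alpha and gamma had more GC than the others, and the 500 bases before the model held 59.6% and 70.2% GC in alpha 8 and 9, against 33.6 to 38.4% in alpha 1 to 7. In gamma 7 to 9 they held 46.2 to 55.8%, against at most 43.8% in gamma 1 to 6. Pcdhb22, the last of beta, had 32.2%, within the beta range of 30.8 to 46.6%. The CpG ratio of the same 500 bases overlapped between the sets. It was 0.542 and 0.796 in alpha 8 and 9, against 0.466 to 0.651 in alpha 1 to 7. In gamma 7 to 9 it was 0.212 to 0.822, against 0.139 to 0.759 in gamma 1 to 6. These 500 bases end at the start codon in alpha and upstream of it in gamma. The last positions of alpha and gamma are where the C-type isoforms are known to lie, and the models do not name them.

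Translated first exons could be sorted into groups of high identity within each cluster, with several exons outside them. The groups were drawn after the identities were seen, so the ranges below describe them and are no test of them. Identity is given as identical residues over the shorter of 2 aligned sequences, Pcdhb6 being left out because it is truncated. Alpha first exons 1 to 7 were 73.6 to 79.0% identical to each other (21 pairs). Alpha 8 and 9 were 36.5 to 43.3% identical to these 7 and 42.5% identical to each other. Pairs of an alpha and a gamma first exon had 37.5 to 44.9% (81 pairs).

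In beta, Pcdhb1 stood apart in the same way. It was 46.8 to 50.2% identical to the other 20 genes, which were 65.8 to 86.3% identical to each other. The pair most alike was Pcdhb11 and Pcdhb12, which are neighbours, and 13 of these 190 pairs had 80% or more. Among the modelled first exons of its own cluster, the most alike one was next in order for 4 of 21 in beta, 3 of 9 in alpha and 6 of 9 in gamma. The counts that a random order would give were not computed, so these counts do not measure likeness between neighbours.

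In gamma, first exons 1, 2, 3, 5 and 6 were 65.7 to 76.7% identical to each other, with the pair of 2 and 3 the highest. Gamma 4 was 40.7 to 45.5% identical to the other 8, and gamma 7, 8 and 9 were 40.4 to 46.8% identical among themselves. The median over all 36 gamma pairs was 44.2%, against 73.9% over the 36 alpha pairs and 69.2% over 210 beta pairs.

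**Figure D4:**
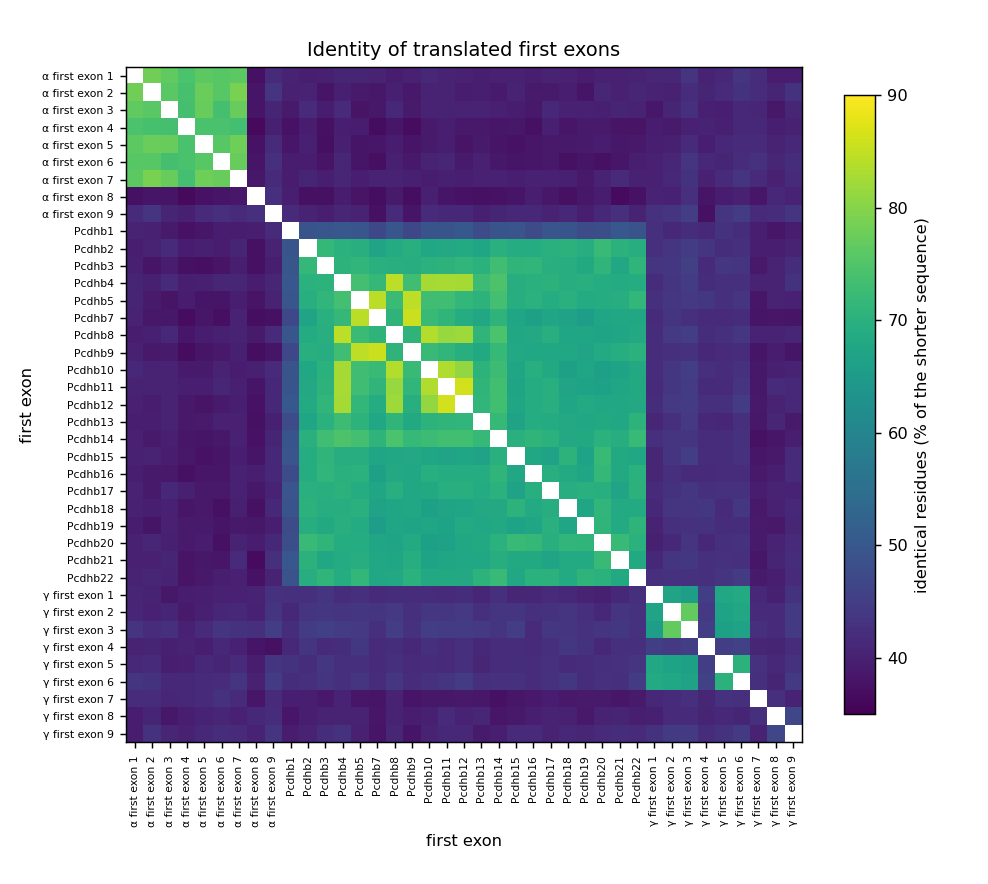
Identity between 39 translated first exons in cluster order, in percent of the shorter sequence, with the diagonal left white. High identity is seen in the blocks alpha 1 to 7, Pcdhb2 to Pcdhb22, and gamma 1, 2, 3, 5 and 6, and alpha 8 and 9, Pcdhb1, gamma 4 and gamma 7 to 9 lie outside them.

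The models did not cover every exon of the clusters. The span held 61 open reading frames of 2000 bases or more on the forward strand, from a start codon to a stop codon, and 58 of them were at least 40% identical to a member first exon. The remaining 3 had 2.02 to 6.89%, as had the 3 on the opposite strand with 2.20 to 5.36%. Of the 58 related frames, 40 lay in members, 1 in AC020968.2 and 17 in no model of the same strand in the file or in GENCODE M1. Alpha held 14 frames, of which 9 were in Pcdha1, and beta 22, each in its own gene. Gamma and the stretch before it held 22, of which 9 were in Pcdhga11. RefSeq lists 14 alpha, 22 beta and 22 gamma symbols.

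The 17 frames with no model on their strand were 64.0 to 77.7% identical to their most alike first exon, and 15 of them lay inside an intron of a member. In alpha the 4 missing frames were 77.2 to 77.7% identical to it and lay between alpha 3 and alpha 4. In gamma, 6 were most like gamma 4 at 64.0 to 73.1%, while no modelled gamma first exon was above 45.5% to it. The first 2 related frames before gamma, at 37821599 and 37828759, lay upstream of the first base of Pcdhga11. Reads from these frames would fall in introns or outside the members.

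Antisense models crossed some first exons. Gm10545 on the reverse strand covered 2340 bases (97.7%) of alpha first exon 6 and 450 bases (18.8%) of alpha first exon 7. Gm16882, a long intergenic noncoding RNA, covered 1339 bases (51.6%) of gamma first exon 5 and 308 bases (10.4%) of gamma first exon 6. It also covered 100% of the unmodelled frame at 37906842 and 24.6% of the frame at 37911433. The library protocol names no step that keeps strand, and without strand, reads from a first exon and from its antisense partner cannot be told apart. Beside AC020968.2, 7 other gene names lay in the span, and 5 of the 8 were on the reverse strand.

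What a read of 100 bases, the length sequenced, could tell apart was computed from the models. A window of 100 bases was called private when it was in no other transcript of the same locus. In alpha models 1, 4, 5, 6 and 7, 75.8 to 83.9% of windows were private, and in models 8, 9 and 10, with the long last exon, 46.1 to 48.1% were. In gamma models 1 to 8 the share was 55.5 to 59.4%. The overlapping models had less, with 33.8% in alpha model 2, 1.13% in alpha model 3, 4.43% in gamma model 9 and 52.5% in gamma model 10. In beta, 19 of 25 transcripts were the only one at their locus, so all their windows were private by this definition. Their share is therefore no measure of how unlike other members they are. Pcdhb8 had 0.446% in each of its 2 transcripts. Pcdhb18 had 4.03% in its single-exon and 1.94% in its spliced transcript, and Pcdhb22 had 30.4% and 4.44%.

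Windows that occur at 2 or more places in the genome were few. They made up 12.4% of the windows inside exons of alpha model 7, the highest of all members, and at most 2.88% in beta, in Pcdhb6, and 1.48% in gamma, in model 4. At least 1 such window was found in 7 of 10 alpha models, 12 of 25 beta models and 3 of 10 gamma models. In alpha model 7 they lay in the first exon, which was 77.3% identical to its most alike neighbour in protein, and 311 of its 2295 windows had a copy elsewhere.

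**Figure D5:**
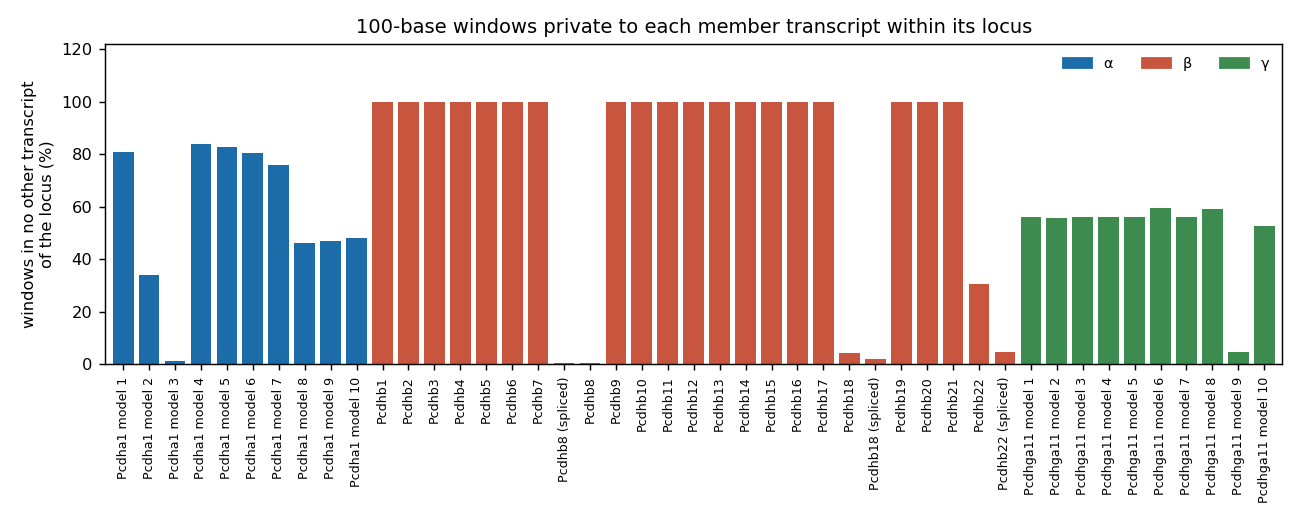
Percent of the 100-base windows of each transcript that are in no other transcript of its locus, coloured by cluster. Beta genes with 1 transcript stand at 100% by definition, as their locus holds no other transcript. Gamma models 1 to 8 stand at 55.5 to 59.4%. Alpha model 3, gamma model 9, the transcripts of Pcdhb8 and Pcdhb18 and the spliced transcript of Pcdhb22 stand at 0.446 to 4.44%.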

How the data were processed

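RNA of NAc pools was sequenced by the authors as reads of 100 bases. According to the submitters' processing notes the tools were TopHat, Cufflinks, Cuffdiff and CASAVA, on the mm9 (NCBIM37) build. Their versions were not given in sources used here. The deposited file holds other values than expression, namely start and end of each exon with identifiers, and 0 columns of values per sample. Replicate spread and depth therefore could not be computed.

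Members and comparison lists were chosen with earlier results of these data known. Exons were grouped by identical start and end, first exons by strand. All members may be named, and those described in full were the first and last of each cluster and those departing from its commonest structure. Sequence came from the NCBIM37 genome, whose 22 chromosome names all matched and which no model exceeded, and start codons from GENCODE M1. RefSeq symbols (GRCm38.p6) served only as names. Frames of at least 2000 bases were aligned with BLOSUM62, gap penalties -11 and -1 and free end gaps. Windows of 100 bases were matched exactly over both strands. Counting was tested on simulated data, with 200 of 200 simulated loci recovered. Python 3.11.15, NumPy 2.4.6, Biopython 1.88 and matplotlib 3.10.9 were used. No sequence of these members is printed here.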

Additional observations from a re-analysis of the deposited data

How the results depend on the processing

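Of 72 alternatives over 30 counts and medians, 64 were called the same. This meant within 1.5 times a count, or within 1 SD over the first exons or spacings for a median. Some of them could not move. Alpha and gamma have 1 gene name each, so no rule by name could find a shared exon there. The SD of spacings was 25398 bases in alpha, 10292 in beta and 17645 in gamma. The medians were 9372, 7281 and 9807 bases, so none could fall by 1 SD. No paired analysis was possible because the file analysed here has no column of any sample, and for the same reason no pool could be left out. Counting every gene name on the same strand inside the span gave 2 in alpha, with AC020968.2, and 2 in gamma, with SNORA40.15. Taking overlapping first exons as TSS groups gave 23 in beta. The longest first exon of each name gave a median of 5426 bases in gamma, where there is 1 name. Constant exons counted in 2 or more transcripts, added after seeing the data, numbered 4 in alpha and 4 in gamma, and shared starts after the first exon numbered 3 in alpha and 3 in gamma. Among loci with 2 or more transcripts, 3.82% held 2 or more gene names, and over all loci the share was 1.47%.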
